A study of Mus musculus with 12 samples.

Results

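The 12 libraries of this study allow one comparison that neither fraction gives alone, namely whether a gene answered CCl4 differently in sinusoidal endothelial cells (SEC) and in hepatic stellate cells (HSC). For each gene the change in fibrotic against control SEC (F-SEC against Q-SEC) was set against the change in fibrotic against control HSC (F-HSC against Q-HSC), and the difference of these log2 changes was tested. All 23472 gene entries of the 56825 entries in the deposited table were taken, the remaining 33353 being cDNA clone entries, and 14489 genes had enough reads for the test. A positive difference means that the SEC change lay above the HSC change.

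RNA was sequenced in bulk from 4 groups of 3 libraries. F-SEC and F-HSC came from livers of male C57BL/6 mice given intraperitoneal CCl4 (0.6 µl per g body weight, 15% in olive oil) 2 times a week for 6 weeks, and Q-SEC and Q-HSC came from livers of mice given olive oil. The mice were 12 to 14 weeks old by the labels and carried no transgene or deletion that the labels name. According to the study's methods, stellate cells were taken as the light layer of a density gradient, and endothelial cells as a denser layer that was then bound to magnetic beads for sinusoidal endothelium. Nothing in the labels ties the libraries of a group to different mice, and the spread behind each p-value is therefore one between libraries that could be technical.

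CCl4 is turned into a reactive radical by hepatocyte cytochromes, and repeated dosing produces cycles of hepatocyte death, leukocyte entry and scarring. Stellate cells store vitamin A in healthy liver and become contractile, collagen-producing myofibroblasts on injury, whereas sinusoidal endothelial cells are fenestrated scavengers that lose their specialised features. Both cell types lie along the sinusoid beside Kupffer cells, the resident macrophages, and dendritic cells, which take up and present antigen.

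Both fractions held transcripts of other cells. Summed over the 27 measured LSEC-associated genes, the level was 15070.0 to 20770.0 CPM (read counts scaled to the library total) in F-SEC and 44130.0 to 51250.0 CPM in Q-SEC, and 4138 to 7363 CPM in F-HSC and 15400.0 to 22620.0 CPM in Q-HSC. The 20 Kupffer cell genes summed to 2830.0 to 5329 CPM in F-SEC and 1175 to 2389 CPM in Q-SEC, against 7329 to 16040.0 CPM in F-HSC and 11290.0 to 30820.0 CPM in Q-HSC. The stellate identity genes summed to 6645 to 10670.0 CPM in F-SEC and 3235 to 4722 CPM in F-HSC, so in fibrotic liver they were higher in the endothelial than in the stellate fraction, against their label. Hence SEC and HSC below name fractions, not pure cells, and in bulk RNA fewer cells of a type and less RNA per cell cannot be told apart. Among the controls Q-SEC.1 and Q-HSC.1 stood apart, with stellate sums of 5517 and 6634 CPM against 572.1 to 802.6 CPM in the other Q-SEC and 1407 to 1836 CPM in the other Q-HSC libraries. F-HSC.1 stood apart in the monocyte and scar-associated macrophage genes, which summed to 43740.0 CPM there and to 14540.0 and 17600.0 CPM in the other F-HSC libraries. Gene counts per library ran from 8714228 to 13068564, at which 3 counts correspond to 0.229 to 0.335 CPM.

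Most genes that answered CCl4 in both fractions moved the same way. The SEC response was called for 3455 genes (23.8% of those tested, with 1705 or 11.8% up and 1750 or 12.1% down) and the HSC response for 4680 genes (32.3%, with 2127 or 14.7% up and 2553 or 17.6% down), by edgeR's quasi-likelihood test at a Benjamini-Hochberg adjusted p under 0.05. Of 1995 genes called in both, 763 were up in both, 1194 were down in both and 38 moved in opposite directions.

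The difference itself was called for 116 genes, 0.801% of the 14489 tested. For 82 of them (0.566%) the SEC change lay above the HSC change, and for 34 (0.235%) it lay below. An unadjusted p under 0.05 was reached by 2558 genes, 1306 positive and 1252 negative. With a median standard error of 0.34 log2 units for the difference, against 0.24 for each response, small differences were not detectable at this depth and replication. The 116 genes differed by 0.84 to 5.43 log2 units in size, leaving aside Prph, the neuronal intermediate filament gene peripherin, which had no read in any Q-SEC library and for which a fitted fold carries no meaning.

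The called genes fell into 4 classes by their responses in each fraction. In 26 genes (0.179% of those tested) both responses were called with opposite signs, 23 of them up in SEC and down in HSC, and 3 down in SEC and up in HSC. Another 8 genes rose in both fractions to unequal extents, 38 rose in SEC with no called HSC response, and 44 were called in HSC alone, of which 27 rose and 17 fell there. Fibrotic and control libraries did not overlap in either fraction for 25 of the 26 genes with opposite responses, beside 25.4% of all tested genes. The 26 genes were selected by calls in both fractions on the same values, so this separation largely follows from the selection.

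**Figure D1:**
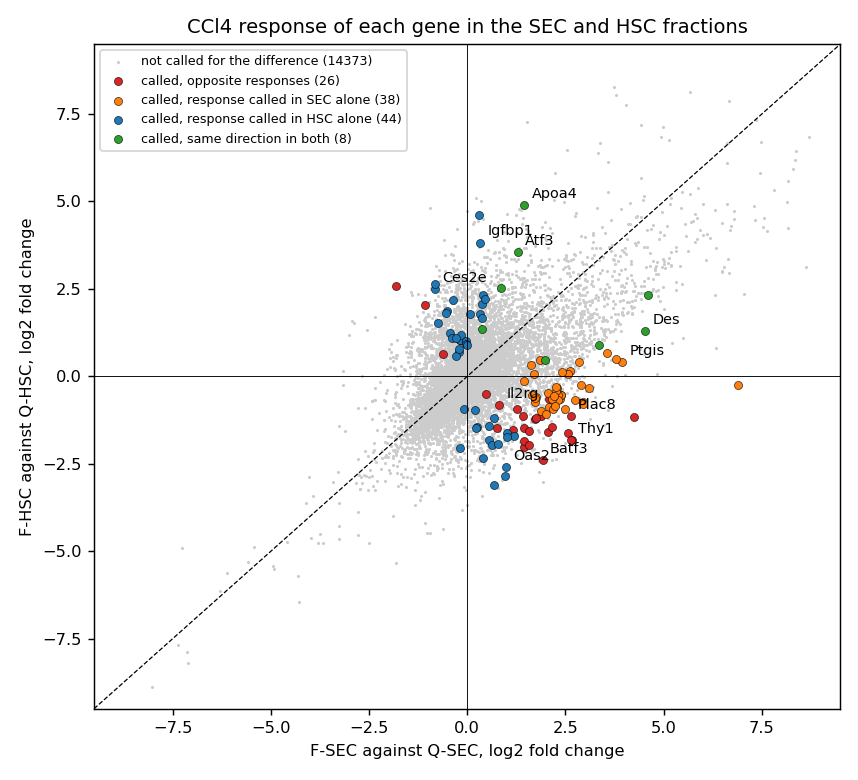
Log2 change with CCl4 in SEC (horizontal) against that in HSC (vertical) for each of the 14489 tested genes, with the 116 genes called for the difference coloured by class and the dashed line marking equal responses. The 26 genes with opposite responses lie in the lower right and upper left quadrants, 23 and 3 of them.

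How far these calls rest on single libraries is seen when each of the 12 libraries is left out in turn. The count of called genes became 75, 8 and 14 on omission of F-SEC libraries 1, 2 and 3, and 390, 4 and 3 for Q-SEC in that order. For F-HSC it became 743, 9 and 4, and for Q-HSC 204, 21 and 37. Leaving out any of the 3 libraries that stood apart thus gave more calls, and leaving out any other gave fewer. All 116 genes kept the sign of their difference and an unadjusted p under 0.05 in each of the 12 fits, but each passed the adjusted threshold in only 2 to 12 of them. Only Pdlim2, Panx1 and Il2rg passed it in all 12. Among genes described below, Flt3, Oas2, H2-DMb1, Ptgis, Ces2e and Igfbp1 passed it in 3, and Naaa and Apoa4 in 4, against 9 for Batf3. Without Q-SEC.1 and Q-HSC.1 together, a setting chosen after seeing the data, 431 genes were called and 107 of the 116 were among them.

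**Figure D2:**
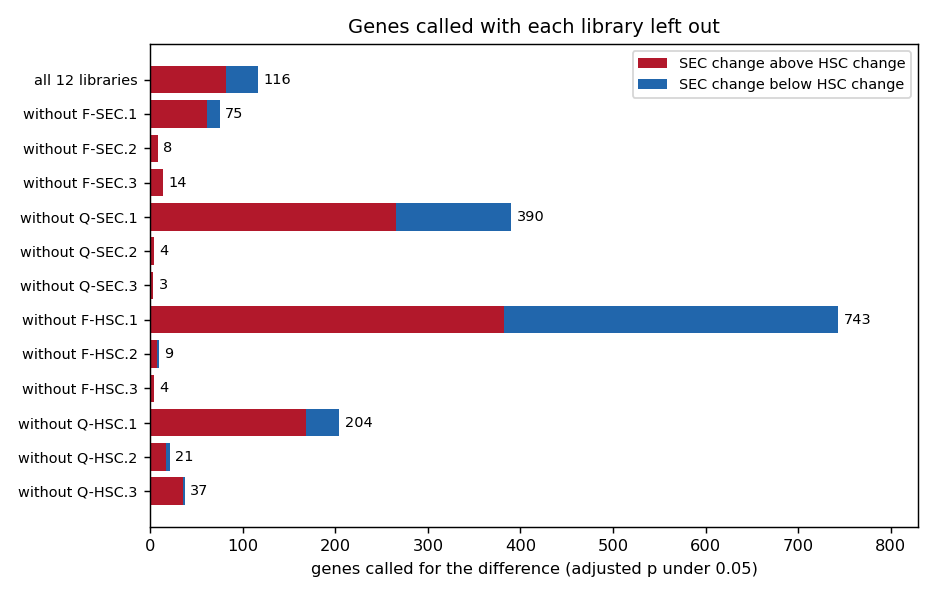
Number of genes called for the difference (horizontal axis) with all 12 libraries and with each library left out in turn (vertical axis), split into genes whose SEC change lay above (red) or below (blue) the HSC change. The count was 116 with all libraries and ran from 3 without Q-SEC.3 to 743 without F-HSC.1.

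The 23 genes that rose in SEC and fell in HSC included several of dendritic cells and other leukocytes. A gene of this class can have its highest mean only in F-SEC or Q-HSC, and for all 23 genes it was Q-HSC. Their SEC change ran from 0.48 to 4.26 log2 units with a median of 1.73, and their HSC change from -2.39 to -0.50 with a median of -1.47. Of the 26 genes with opposite responses, 8 belonged to the myeloid or lymphoid lists, each of which holds 7 to 25 of the 14489 tested genes. These lists were chosen with earlier results of these data known, so the count is a description only. Thy1 and Cd209a, among the 8, are also in the mesenchymal and LSEC-associated lists. The Kupffer cell sums given above moved the same way, higher in F-SEC than in any Q-SEC library and lower in F-HSC than in Q-HSC apart from an overlap of F-HSC.1 with Q-HSC.1 and Q-HSC.2. No gene of that list was at 0 in all libraries of a group, and the part of leukocyte content in these results was not tested.

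Batf3, the transcription factor that mouse type 1 conventional dendritic cells require (mm10 chromosome 1, 191098414 to 191108943), measured 2.44, 4.74 and 2.17 CPM in the F-SEC libraries, against 1.17, 0.628 and 0.648 CPM in the Q-SEC libraries. It measured 4.34, 4.57 and 5.82 CPM in the F-HSC libraries, against 17.2, 27.3 and 32.5 CPM in the Q-HSC libraries. Each F-SEC library lay above each Q-SEC library and each F-HSC library lay far below each Q-HSC library. The SEC change was 1.92 ± 0.41 and the HSC change -2.39 ± 0.35 log2 units (± SE), so the difference was 4.31 ± 0.54 (adjusted p = 0.014). The call held in 9 of the 12 fits with a library left out and was lost without Q-SEC.2, Q-SEC.3 or F-HSC.3 (adjusted p = 0.072, 0.075 and 0.052).

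Further genes of dendritic cells also had opposite responses. Flt3, the receptor for the growth factor on which dendritic cells depend, was at 1.13, 1.16 and 1.03 CPM in the F-SEC libraries, against 0.213, 0.314 and 0 CPM in the Q-SEC libraries. In the other fraction it was at 6.17, 9.42 and 9.78 CPM in the F-HSC libraries, against 15.2, 41.5 and 21.7 CPM in the Q-HSC libraries. The Q-SEC values correspond to 0 to 3 reads, so the SEC change of Flt3 is loosely set, and its difference was 4.20 ± 0.79 (adjusted p = 0.042). Naaa, an acid amidase abundant in type 1 dendritic cells, had a difference of 2.70 ± 0.44 (adjusted p = 0.030), with 12.4 ± 1.10 CPM in F-SEC, against 5.54 ± 1.68 CPM in Q-SEC, and 23.6 ± 2.64 CPM in F-HSC, against 68.9 ± 27.6 CPM in Q-HSC (SD, n = 3). For Clec10a, a galactose-binding lectin of dendritic cells and macrophages, the difference was 2.57 ± 0.51 (adjusted p = 0.047). Cd209a, a homologue of the human dendritic cell lectin DC-SIGN, differed by 4.47 ± 0.70 (adjusted p = 0.029) and was also low in Q-SEC, where no library exceeded 0.319 CPM.

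Plac8, a small cysteine-rich protein of monocytes and plasmacytoid dendritic cells (mm10 chromosome 5, 100553733 to 100572205), was among the genes of this class with higher levels. It measured 173, 98.2 and 117 CPM in the F-SEC libraries, against 26.4, 19.0 and 16.8 CPM in the Q-SEC libraries. It measured 60.9, 57.3 and 63.4 CPM in the F-HSC libraries, against 67.3, 137 and 193 CPM in the Q-HSC libraries. F-SEC exceeded Q-SEC in each library, while F-HSC lay below Q-HSC by a narrow margin for Q-HSC.1. Its difference was 3.77 ± 0.49 (adjusted p = 0.019). Runx2, a Runt-family transcription factor of osteoblasts that plasmacytoid dendritic cells also express, had 11.6 ± 5.96 CPM in F-SEC, against 2.58 ± 1.58 CPM in Q-SEC, and 20.1 ± 5.54 CPM in F-HSC, against 54.2 ± 17.5 CPM in Q-HSC (SD, n = 3). Its difference was 3.59 ± 0.69 (adjusted p = 0.043), and the gene overlaps Supt3 on the other strand, so their reads cannot be told apart without strand.

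Il2rg, the gamma chain shared by several interleukin receptors (mm10 chromosome X, 101264387 to 101268206), had the lowest p of the class. It was at 65.4, 56.2 and 51.2 CPM in the F-SEC libraries, against 30.8, 30.4 and 37.0 CPM in the Q-SEC libraries. It was at 54.4, 52.9 and 52.7 CPM in the F-HSC libraries, against 92.05, 98.9 and 92.2 CPM in the Q-HSC libraries. The fibrotic groups came close to one another, and the control groups lay on either side of them. The difference was 1.64 ± 0.18 (adjusted p = 0.0070), within 1.54 to 1.75 when any library was left out.

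Pou2f2, the octamer-binding factor Oct-2 of B cells and other leukocytes, measured 5.05, 10.8 and 5.16 CPM in the F-SEC libraries, against 3.19, 2.82 and 1.73 CPM in the Q-SEC libraries. It measured 17.0, 15.4 and 17.8 CPM in the F-HSC libraries, against 44.7, 62.8 and 73.8 CPM in the Q-HSC libraries. Its difference came to 3.29 ± 0.46 (adjusted p = 0.019), with no overlap in either fraction. Arhgap15, a GTPase-activating protein for Rac, differed by 2.73 ± 0.34 (adjusted p = 0.014) and rose in SEC by 2.09 ± 0.26, although its HSC change was -0.64 ± 0.22. Other regulators of the actin skeleton in the class were Fgd2, an exchange factor for Cdc42, at 3.46 ± 0.60 (adjusted p = 0.036), Dock10, of the Dock family of exchange factors, at 3.03 ± 0.52 (adjusted p = 0.036), and Vasp, a promoter of actin filament growth, at 0.98 ± 0.17 (adjusted p = 0.036).

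Thy1, the surface glycoprotein CD90 of mouse T cells and of fibroblasts, was at 15.7, 23.3 and 14.8 CPM in the F-SEC libraries, against 2.55, 2.30 and 3.78 CPM in the Q-SEC libraries. It was at 10.2, 31.4 and 18.7 CPM in the F-HSC libraries, against 99.97, 83.4 and 27.7 CPM in the Q-HSC libraries. F-HSC.2 and Q-HSC.3 overlapped, which made it the single gene of the 26 without separation in both fractions. The difference was 4.45 ± 0.72 (adjusted p = 0.030). Slc27a6, a fatty acid transport protein, had the largest difference of the 26, 5.43 ± 0.61 (adjusted p = 0.0070), with 2.94 ± 1.12 CPM in F-SEC, against 0.141 ± 0.0590 CPM in Q-SEC, and 2.29 ± 0.397 CPM in F-HSC, against 5.21 ± 1.51 CPM in Q-HSC (SD, n = 3). All of its Q-SEC values lay at or under the level of 3 counts, so that difference has a loose scale.

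The rest of the 23 comprised the long noncoding RNA Pvt1 next to Myc, at 2.94 ± 0.40, the poly(A) polymerase Fam46a at 2.23 ± 0.31, and the splicing regulator Celf2 at 2.21 ± 0.34. Filip1l, which overlaps Cmss1 on the other strand, was at 2.95 ± 0.45, and Pdzd4, a PDZ domain protein, at 3.11 ± 0.50. Slc14a1, a urea transporter, was at 3.54 ± 0.57, Epsti1, an interferon-inducible gene, at 2.93 ± 0.47, and Gfra2, a receptor for neurturin, at 3.65 ± 0.73. Their adjusted p-values ran from 0.019 to 0.049.

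**Figure D3:**
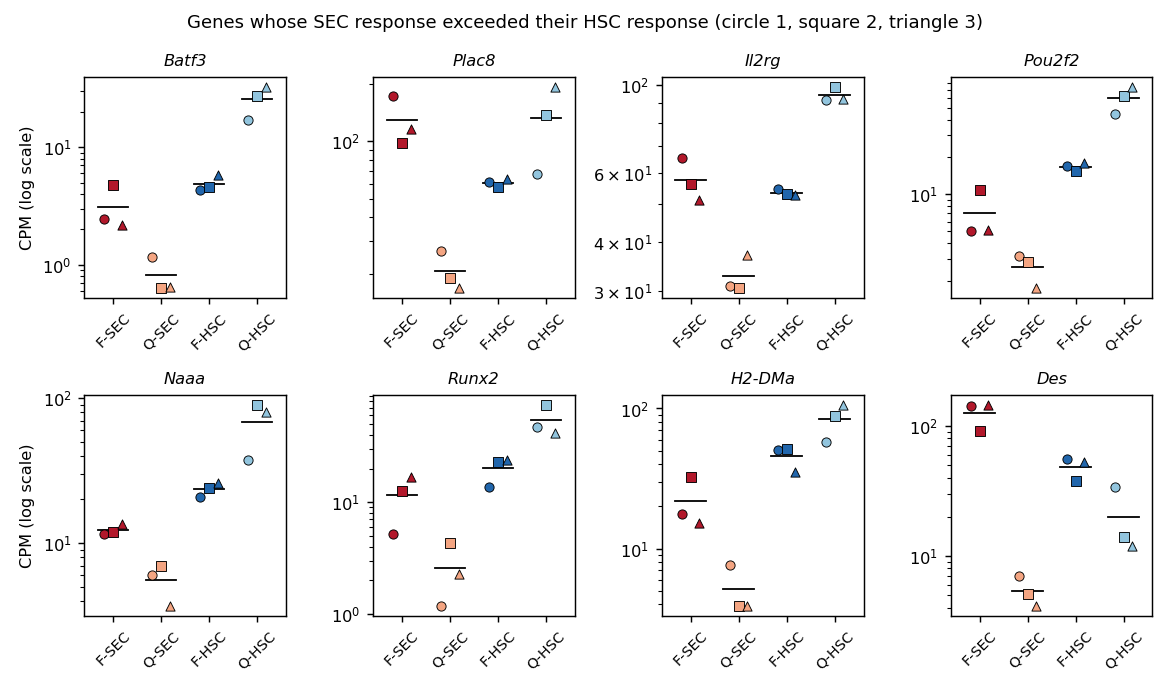
CPM on a log scale in each of the 12 libraries for 8 genes with a positive difference, by group from F-SEC to Q-HSC, with the library number given by the marker and the group mean by the bar. Batf3, Plac8, Il2rg, Pou2f2, Naaa and Runx2 are higher in F-SEC than in Q-SEC and lower in F-HSC than in Q-HSC, whereas Des is higher in the fibrotic group of both fractions.

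Promoter sequence is shown for 4 of the 5 genes of this class with the lowest p, because genes that move together invite a look at their start sites. The windows are those of RefSeq (GRCm38.p6), from 250 bases before to 50 bases after an annotated start, taken nearest to the start in the deposited table, and capitals mark CCAAT or TGACG on either strand, the boxes bound by NF-Y and by CREB-type factors.
Il2rg (chrX:101268206-101268505, minus strand): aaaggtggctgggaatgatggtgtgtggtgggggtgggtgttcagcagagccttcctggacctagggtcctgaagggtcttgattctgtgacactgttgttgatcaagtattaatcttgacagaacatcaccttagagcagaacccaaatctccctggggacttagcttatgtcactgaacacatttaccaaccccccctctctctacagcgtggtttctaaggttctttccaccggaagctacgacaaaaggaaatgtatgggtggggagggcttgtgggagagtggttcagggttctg
Batf3 (chr1:191098164-191098463, plus strand): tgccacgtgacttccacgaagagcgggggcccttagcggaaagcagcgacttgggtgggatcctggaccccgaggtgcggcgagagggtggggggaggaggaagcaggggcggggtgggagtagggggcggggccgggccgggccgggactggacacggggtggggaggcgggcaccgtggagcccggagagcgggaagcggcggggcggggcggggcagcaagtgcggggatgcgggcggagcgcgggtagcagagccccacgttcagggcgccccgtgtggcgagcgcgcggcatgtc
Arhgap15 (chr2:43748574-43748873, plus strand): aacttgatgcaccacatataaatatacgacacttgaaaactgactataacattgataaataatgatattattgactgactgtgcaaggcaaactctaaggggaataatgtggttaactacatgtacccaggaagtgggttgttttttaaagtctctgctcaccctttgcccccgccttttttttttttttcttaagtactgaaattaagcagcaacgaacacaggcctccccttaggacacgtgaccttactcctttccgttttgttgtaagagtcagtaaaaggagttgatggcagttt
Plac8 (chr5:100572156-100572455, minus strand): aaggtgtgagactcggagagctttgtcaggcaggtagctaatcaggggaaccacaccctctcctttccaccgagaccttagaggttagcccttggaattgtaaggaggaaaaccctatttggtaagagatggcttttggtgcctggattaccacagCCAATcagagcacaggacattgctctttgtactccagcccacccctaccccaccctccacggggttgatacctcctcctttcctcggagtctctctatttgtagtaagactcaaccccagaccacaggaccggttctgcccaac

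One CCAAT box, in Plac8, was the only match in these 4 windows. Over the 17 of the 26 genes with a window, 4 (23.5%) held CCAAT and 0 held TGACG, beside 38.2% and 30.4% of the windows of 10662 tested genes. These matches are letters in a window and were not tested as binding sites.

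MHC class II loading shared this direction, with 2 of the 16 measured genes called, beside 0.566% of all tested genes with a called positive difference. H2-DMa, one chain of the chaperone that loads peptide onto class II molecules (mm10 chromosome 17, 34122832 to 34139101), was at 17.8, 32.1 and 15.2 CPM in the F-SEC libraries, against 7.65, 3.87 and 3.89 CPM in the Q-SEC libraries. It was at 50.7, 51.1 and 35.4 CPM in the F-HSC libraries, against 57.9, 88.3 and 106 CPM in the Q-HSC libraries. F-SEC lay above Q-SEC in all libraries and F-HSC below Q-HSC in all libraries, though the HSC change missed the threshold (adjusted p = 0.070). The difference was 2.95 ± 0.50 (adjusted p = 0.036). Its partner chain H2-DMb1 differed by 2.67 ± 0.53 (adjusted p = 0.049). All 16 measured class II genes had a positive difference, with a median of 2.58 log2 units (1.92 without F-SEC.2) beside 0.02 over all tested genes. Their median change was 2.10 in SEC and -0.70 in HSC. They summed to 2485 CPM in F-SEC.2 and to 979.8 and 838.5 CPM in F-SEC.1 and F-SEC.3, against 222.8 to 365.1 CPM in Q-SEC.

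The other leukocyte lists were mixed. The 20 Kupffer cell genes had a median difference of 2.48 (1.90 without F-SEC.2 and 1.89 without Q-HSC.3) and 20 positive values. None was called, beside 0.801% of all tested genes. Their median change was 1.23 in SEC, where 8 rose, and -0.64 in HSC, where 6 fell. Over all tested genes 11.8% rose in SEC and 17.6% fell in HSC. Nr1h3, the liver X receptor alpha of Kupffer cells, stood nearest to a call at 2.52 ± 0.56 (adjusted p = 0.066). The 5 conventional dendritic cell genes described above were the called ones among 25, beside 0.566% of all tested genes with a called positive difference. In SEC 10 of the 25 genes rose and 4 fell, beside 11.8% and 12.1% of all tested genes. The median difference of the list was 0.745 (0.42 without Q-HSC.2 and 0.48 without Q-SEC.1), and 6 of the 25 differences were negative. Its summed level was 2160.0 to 2470.0 CPM in F-SEC and 2337 to 2541 CPM in Q-SEC, and 2217 to 3780.0 CPM in F-HSC and 2578 to 3269 CPM in Q-HSC, so the groups overlapped in both fractions. Among 17 plasmacytoid dendritic cell genes the median difference was 2.37 with 1 call, Runx2.

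Of 24 monocyte and scar-associated macrophage genes 14 rose in SEC and 13 in HSC, beside 11.8% and 14.7% of all tested genes. In HSC 1 fell, and the median changes of the 24 were 2.17 in SEC and 1.97 in HSC. Their sum was 8626 to 11510.0 CPM in F-SEC and 5203 to 5699 CPM in Q-SEC, and 14540.0 to 43740.0 CPM in F-HSC and 7223 to 12390.0 CPM in Q-HSC, with no overlap in either fraction. The median difference was 0.77 (0.37 without F-HSC.2, 0.44 without F-SEC.3 and 1.53 without F-HSC.1), and Plac8 was the one call. Neutrophil genes lay on the other side, with 14 of 16 differences negative, a median of -1.13 (-0.08 without Q-SEC.2 and -0.74 without Q-HSC.1), median changes of -0.59 in SEC and 0.45 in HSC, and 0 calls. The 13 B and plasma cell genes had a median difference of 0.06, with 6 negative and 0 calls, and this median changed sign with the library left out (-0.18 to 0.44).

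Leukocyte-associated genes also appeared among those called in SEC alone. Aif1, the calcium-binding macrophage protein Iba1, differed by 2.87 ± 0.56 (adjusted p = 0.047), with 15.9 ± 4.43 CPM in F-SEC, against 4.35 ± 1.86 CPM in Q-SEC, and 52.1 ± 16.8 CPM in F-HSC, against 104 ± 47.2 CPM in Q-HSC (SD, n = 3). Cd48, a ligand of leukocyte receptors, differed by 2.53 ± 0.49 (adjusted p = 0.043), and Gpr65, a proton-sensing receptor of leukocytes, by 2.98 ± 0.48 (adjusted p = 0.030). Runx1, the blood lineage relative of Runx2, rose in SEC by 2.56 ± 0.36 against 0.06 ± 0.32 in HSC and differed by 2.50 ± 0.48 (adjusted p = 0.043). Ear2, of the eosinophil-associated ribonuclease family, differed by 2.60 ± 0.50 (adjusted p = 0.043). Ear3 and Ear12 of the same family carried identical values in every library, so reads shared between the copies make both calls uncertain. All of these genes were chosen after their values were seen.

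Over the 38 genes called in SEC alone, each rose there, by 1.46 log2 units or more. The HSC change ranged from -1.07 to 0.67 and was negative in 28. In 23 of the 38 the highest mean was that of Q-HSC, as for the genes with opposite responses, and in 11 it was that of F-SEC. Genes that rose in SEC cannot be highest in Q-SEC, and these shares were not computed over all tested genes. The 2 genes with the lowest p of all belonged here and were chosen after their values were seen. Pdlim2, an adaptor with PDZ and LIM domains that targets transcription factors for degradation (mm10 chromosome 14, 70164218 to 70177672), measured 45.5, 34.7 and 42.1 CPM in the F-SEC libraries, against 5.10, 6.17 and 5.61 CPM in the Q-SEC libraries. It measured 24.5, 21.4 and 22.6 CPM in the F-HSC libraries, against 15.9, 18.3 and 17.7 CPM in the Q-HSC libraries. Fibrotic and control libraries were separate in both fractions, with the wide gap in SEC. The difference was 2.45 ± 0.21 (adjusted p = 0.0018).

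Panx1, the pannexin channel that releases ATP (mm10 chromosome 9, 15005785 to 15045478), measured 10.7, 10.6 and 13.003 CPM in the F-SEC libraries, against 2.23, 1.99 and 2.91 CPM in the Q-SEC libraries. It measured 11.7, 11.2 and 10.3 CPM in the F-HSC libraries, against 15.0, 14.7 and 11.5 CPM in the Q-HSC libraries. Q-SEC thus stood alone below the other groups. The difference was 2.57 ± 0.28 (adjusted p = 0.0070), within 2.45 to 2.74 when any library was left out.

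Of 25 stellate identity genes 1 was called, beside 0.801% of all tested genes. Des, desmin, the muscle intermediate filament that marks rodent stellate cells (mm10 chromosome 1, 75360344 to 75367715), measured 142, 91.7 and 144 CPM in the F-SEC libraries, against 7.02, 5.13 and 4.10 CPM in the Q-SEC libraries. It measured 55.8, 37.8 and 52.3 CPM in the F-HSC libraries, against 33.6, 14.0 and 12.0 CPM in the Q-HSC libraries. F-SEC was the highest group and Q-SEC the lowest, and in both fractions the fibrotic libraries lay above the controls. The difference was 3.25 ± 0.54 (adjusted p = 0.032) and stayed within 2.66 to 3.54 when any library was left out. However, the adjusted p was under 0.05 in only 4 of these 12 fits, and the call was lost in the rest. Ptgis, prostacyclin synthase, rose in SEC by 3.94 ± 0.54 and changed in HSC by 0.41 ± 0.46, a difference of 3.53 ± 0.69 (adjusted p = 0.047). Plxdc2, a plexin domain transmembrane protein, rose in both fractions and by 2.29 ± 0.41 more in SEC (adjusted p = 0.037), and Lbh, a transcriptional cofactor of limb and heart development, by 1.52 ± 0.21 (adjusted p = 0.019). Plxdc2 and Lbh were chosen after their values were seen.

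Other genes of stellate cells and scar matrix did not pass with all 12 libraries. All 25 stellate identity genes had a positive difference, with a median of 1.86. Omitting Q-SEC.1 gave a median of 4.14, omitting Q-HSC.1 gave 0.83, and omitting both gave 3.10. Reln, a glycoprotein secreted by stellate cells, measured 604, 1692 and 1864 CPM in the F-SEC libraries, against 783, 56.3 and 31.8 CPM in the Q-SEC libraries. It measured 475, 841 and 929 CPM in the F-HSC libraries, against 1166, 275 and 200.1 CPM in the Q-HSC libraries. Library 1 of each control group was above the lowest fibrotic library, and its difference was 1.81 ± 1.49 (adjusted p = 0.56). It became 4.53 on omission of Q-SEC.1 and 0.61 on omission of Q-HSC.1. With libraries 2 and 3 of each group alone it was 3.44 and was called (adjusted p = 0.0044). That fit rests on 2 libraries per group and called 1712 genes, in place of 116 with all 12 libraries. In that fit Pdgfrb and Pdgfra, receptors for platelet-derived growth factor, were also called, at 4.10 and 3.33 (adjusted p = 0.0024 and 0.0062). So were Lrat, the retinol-esterifying enzyme, at 2.78 (adjusted p = 0.015), and Col3a1 of type III collagen, at 3.04 (adjusted p = 0.040).

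Of 32 fibrillar and interstitial matrix genes 28 rose in SEC and 24 in HSC, beside 11.8% and 14.7% of all tested genes. The 32 had median changes of 3.76 and 2.94. Their median difference was 1.54 (0.68 without Q-HSC.1), and 0 were called for the difference. With 0.801% of all tested genes called, 0 calls among 32 genes say little. Col1a1, the main chain of type I collagen, had 4362 ± 2405 CPM in F-SEC, against 13.9 ± 12.9 CPM in Q-SEC, and 2392 ± 1272 CPM in F-HSC, against 39.4 ± 35.9 CPM in Q-HSC (SD, n = 3). It rose by 8.29 ± 1.08 in SEC and by 5.92 ± 0.97 in HSC, a difference of 2.37 ± 1.13 (adjusted p = 0.31). The smooth muscle actin gene Acta2 differed by 1.55 ± 1.34 (adjusted p = 0.58). Mmp23, a transmembrane matrix metalloproteinase, came closest at 1.84 ± 0.37 (adjusted p = 0.052).

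Endothelial genes showed small differences. Of 27 LSEC-associated genes 21 fell in SEC and 22 in HSC, beside 12.1% and 17.6% of all tested genes. The 27 had median changes of -1.25 and -1.64 and a median difference of 0.20 (-0.00081 without F-HSC.3 and 0.34 without F-HSC.1). The called one was Cd209a, which the dendritic cell list also holds. Stab2, the hyaluronan scavenger receptor of sinusoidal endothelium, changed by -1.59 ± 0.27 in SEC and by -1.86 ± 0.27 in HSC, a difference of 0.27 ± 0.37 (adjusted p = 0.75). For Kdr, the main receptor for VEGF on endothelium, the difference was 0.06 ± 0.37 (adjusted p = 0.95). For Cd34, an endothelial glycoprotein gained when sinusoids turn capillary-like, it was 0.30 ± 0.30 (adjusted p = 0.65), and for Col4a1 of the basement membrane 0.02 ± 0.54 (adjusted p = 0.99). None of the endothelial-mesenchymal transition factors Snai1, Snai2, Twist1, Zeb1 and Zeb2 was called with all 12 libraries. Their differences were -0.36, 0.07, 0.66, 0.27 and 0.90 in that order (adjusted p from 0.26 to 0.95). These values leave intervals wide enough for a difference that the test could not resolve. With libraries 2 and 3 of each group alone, Zeb2 was called at 1.38 (adjusted p = 0.039) and the other factors were not. That fit called 1712 genes in place of 116, so 1 call among these factors is not particular to them.

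The interferon-induced genes Oas2 and Gbp8 fell in HSC with no called SEC change. Oas2, an interferon-induced oligoadenylate synthetase that senses viral RNA (mm10 chromosome 5, 120730333 to 120749848), measured 56.3, 47.0 and 34.9 CPM in the F-SEC libraries, against 15.6, 32.2 and 21.7 CPM in the Q-SEC libraries. It measured 69.4, 35.1 and 30.2 CPM in the F-HSC libraries, against 143, 296 and 375 CPM in the Q-HSC libraries. F-HSC lay below Q-HSC in all libraries and overlapped F-SEC, while the SEC change was not called (adjusted p = 0.11). Its difference was 3.58 ± 0.60 (adjusted p = 0.032). Over 33 interferon-stimulated genes 31 had a positive difference, with a median of 0.71, and Oas2 was the only one called for the difference. Of the 33 genes 3 fell in SEC and 15 in HSC, beside 12.1% and 17.6% of all tested genes. Gbp8, of the interferon-induced guanylate-binding proteins, was called outside that list at 2.75 ± 0.48 (adjusted p = 0.036) and was chosen after its values were seen.

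Further large positive differences were found for Abca9, a transporter of the ABC family, at 3.69 ± 0.69 (adjusted p = 0.042), and for Pla2g4a, the cytosolic phospholipase A2 that frees arachidonic acid, at 3.43 ± 0.60 (adjusted p = 0.036). E230029C05Rik, a transcript with no assigned role, differed by 3.82 ± 0.74 (adjusted p = 0.043), and 1810011H11Rik by 3.43 ± 0.62 (adjusted p = 0.037). E230029C05Rik fell in HSC with no called SEC change, whereas the other 3 rose in SEC.

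In the opposite direction, the SEC change lay below the HSC change in 34 genes, and 31 of these had their highest mean in F-HSC. The HSC change of all 34 was 0.58 log2 units or more, so genes high in F-HSC were favoured by the selection. None of the 34 belonged to the hepatocyte or cholangiocyte lists. Those lists hold only 28 and 16 of the 14489 tested genes, so the absence says little about the 34. Several of the 34 are expressed in liver parenchyma. Igfbp1, an insulin-like growth factor binding protein secreted by liver (mm10 chromosome 11, 7197787 to 7202546), measured 9.75, 9.87 and 16.2 CPM in the F-SEC libraries, against 8.19, 10.9 and 9.28 CPM in the Q-SEC libraries. It measured 156, 210.1 and 372 CPM in the F-HSC libraries, against 27.9, 16.1 and 8.05 CPM in the Q-HSC libraries. In SEC the groups overlapped, with a change of 0.33 ± 0.44, and in HSC it rose by 3.82 ± 0.46 with no overlap. The difference was -3.49 ± 0.62 (adjusted p = 0.037).

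Apoa4, an apolipoprotein of intestine and liver (mm10 chromosome 9, 46240844 to 46243458), was at 25.3, 22.2 and 28.8 CPM in the F-SEC libraries, against 4.68, 15.0 and 8.20 CPM in the Q-SEC libraries. It was at 168, 236 and 300.2 CPM in the F-HSC libraries, against 4.597, 12.4 and 6.71 CPM in the Q-HSC libraries. It rose in both fractions, by 1.45 ± 0.42 in SEC and by 4.89 ± 0.47 in HSC, and the difference was -3.44 ± 0.60 (adjusted p = 0.036). Ces2e, a liver carboxylesterase, differed by -3.31 ± 0.54 (adjusted p = 0.030), with 16.9 ± 0.993 CPM in F-SEC, against 29.8 ± 10.8 CPM in Q-SEC, and 80.0 ± 26.9 CPM in F-HSC, against 14.1 ± 7.66 CPM in Q-HSC (SD, n = 3). Slc16a12, a creatine transporter, differed by -3.45 ± 0.62 (adjusted p = 0.037), Entpd5, a nucleotide-hydrolysing enzyme of the endoplasmic reticulum, by -2.56 ± 0.47 (adjusted p = 0.039), and Ifi27l2b, of the interferon alpha-inducible protein 27 family, by -4.31 ± 0.78 (adjusted p = 0.037).

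The 28 hepatocyte marker genes lay mostly on the same side. Their summed level was 3886 to 5564 CPM in F-SEC and 2387 to 9994 CPM in Q-SEC, and 19990.0 to 48740.0 CPM in F-HSC and 6914 to 16180.0 CPM in Q-HSC. F-HSC exceeded Q-HSC in every library, while the ranges of F-SEC and Q-SEC overlapped. Of the 28 genes 27 had a negative difference, with a median of -1.64, and none was at 0 in all libraries of a group. In HSC 10 rose and 2 fell, beside 14.7% and 17.6% of all tested genes. For the difference 0 of the 28 were called, beside 0.801% of all tested genes. Alb, serum albumin, differed by -2.27 ± 0.64 (adjusted p = 0.11). The 16 cholangiocyte genes had a median of -1.89 with 16 negative values and 0 calls, and Anxa4, an annexin of biliary epithelium, came closest at -2.08 ± 0.43 (adjusted p = 0.056). The part of epithelial RNA in the called differences was not tested.

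Gclc, Gss and Srxn1, also among the 34, were chosen after their values were seen, and no list fixed here covers their pathway. Gclc, the catalytic subunit of the enzyme that limits glutathione synthesis (mm10 chromosome 9, 77754535 to 77794489), measured 39.0, 43.9 and 44.4 CPM in the F-SEC libraries, against 57.4, 59.9 and 54.0 CPM in the Q-SEC libraries. It measured 122, 192 and 176 CPM in the F-HSC libraries, against 72.3, 71.5 and 62.5 CPM in the Q-HSC libraries. Each F-HSC library exceeded each Q-HSC library, and each F-SEC library lay below each Q-SEC library. The difference was -1.68 ± 0.23 (adjusted p = 0.019). Gss, the synthetase that completes glutathione, changed by 0.34 ± 0.19 in SEC and rose by 1.78 ± 0.19 in HSC (difference -1.44 ± 0.26, adjusted p = 0.037). Srxn1, which regenerates oxidised peroxiredoxins, rose by 0.86 ± 0.22 in SEC and by 2.54 ± 0.23 in HSC (difference -1.67 ± 0.31, adjusted p = 0.038).

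Atf3, a stress-induced transcription factor of the CREB family (mm10 chromosome 1, 191170297 to 191183333), measured 141, 342 and 266 CPM in the F-SEC libraries, against 90.0, 109 and 107 CPM in the Q-SEC libraries. It measured 185, 290.5 and 272 CPM in the F-HSC libraries, against 20.4, 24.0 and 19.7 CPM in the Q-HSC libraries. The fibrotic groups reached similar levels and the control groups did not, Q-HSC being the lower. It rose by 1.29 ± 0.29 in SEC and by 3.54 ± 0.31 in HSC, a difference of -2.25 ± 0.40 (adjusted p = 0.037). Of 27 immediate early genes Atf3 was the only one called, beside 0.801% of all tested genes. The median difference of the 27 was -0.29 (-0.71 without Q-HSC.1 and -0.11 without Q-HSC.2). Gadd45a, a growth arrest gene induced by DNA damage, differed by -1.67 ± 0.27 (adjusted p = 0.030) and overlaps E230016M11Rik on the other strand. It was chosen after its values were seen.

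**Figure D4:**
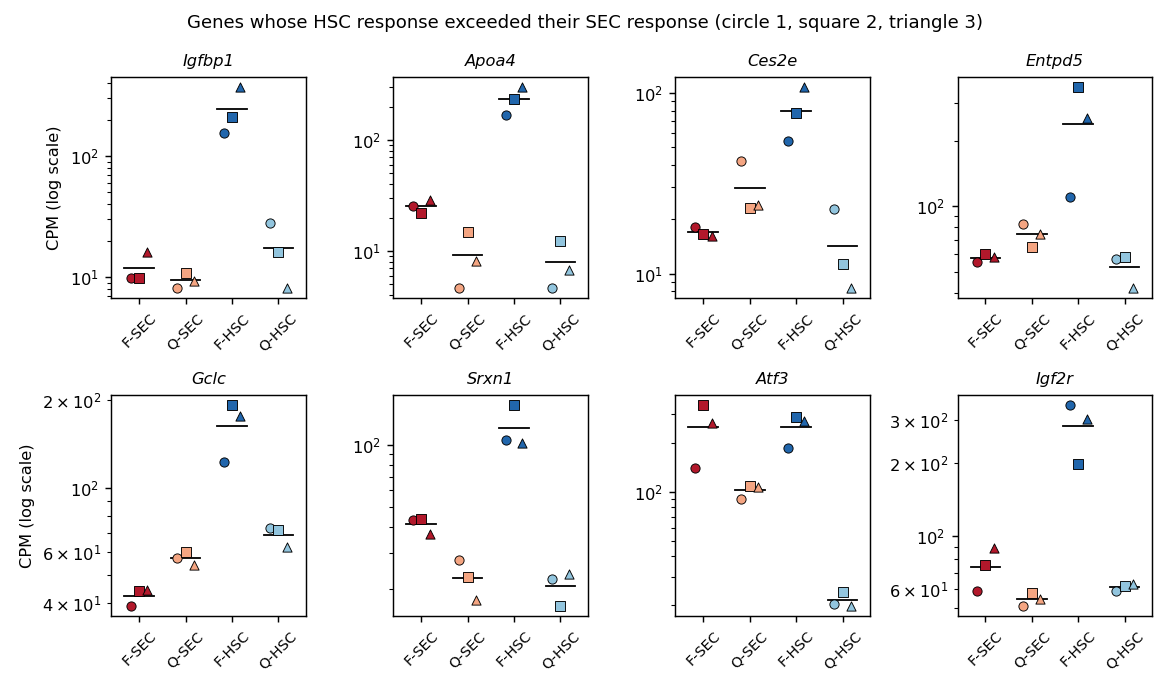
CPM on a log scale in each of the 12 libraries for 8 genes with a negative difference, by group from F-SEC to Q-HSC, with the library number given by the marker and the group mean by the bar. In all 8 panels each F-HSC library lies above each Q-HSC library, and the gap between the F-SEC and Q-SEC means is narrower.

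Other members of the 34 were Igf2r, the receptor that clears insulin-like growth factor 2 and sorts lysosomal enzymes, at -1.76 ± 0.29 (adjusted p = 0.032). It overlaps the antisense transcript Airn, and their reads cannot be told apart without strand. Tgfa, a ligand of the epidermal growth factor receptor, was at -2.26 ± 0.43 (adjusted p = 0.043). The metabolic genes Cers2, a ceramide synthase for very long acyl chains, and Hadhb, a subunit of the mitochondrial trifunctional protein, were at -1.01 ± 0.15 and -0.95 ± 0.17 (adjusted p = 0.029 and 0.037). Cers2 overlaps Setdb1 on the other strand. Its values were tight, at 115, 117 and 100.7 CPM in the F-SEC libraries, against 131, 131 and 125 CPM in the Q-SEC libraries. In HSC they were 186, 177 and 182 CPM in the F-HSC libraries, against 107, 104 and 102 CPM in the Q-HSC libraries. F-HSC stood highest, and F-SEC lay a little below Q-SEC in all libraries. These 4 genes were chosen after their values were seen.

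The 3 genes that fell in SEC and rose in HSC were Pla2g12b, Nedd4l and Cyp4a31. Pla2g12b, a secreted phospholipase relative that hepatocytes use in lipoprotein assembly, measured 2.96, 2.90 and 3.82 CPM in the F-SEC libraries, against 6.70, 7.74 and 5.94 CPM in the Q-SEC libraries. It measured 9.45, 14.2 and 24.7 CPM in the F-HSC libraries, against 4.40, 4.46 and 2.80 CPM in the Q-HSC libraries. Its difference was -3.12 ± 0.49 (adjusted p = 0.029). Nedd4l, a ubiquitin ligase that controls the epithelial sodium channel, had 39.9 ± 2.03 CPM in F-SEC, against 60.8 ± 6.51 CPM in Q-SEC, and 55.2 ± 5.70 CPM in F-HSC, against 35.8 ± 4.62 CPM in Q-HSC (SD, n = 3). Its values were the most even of the 3, and the difference was -1.23 ± 0.20 (adjusted p = 0.029). Cyp4a31, of the fatty acid-hydroxylating cytochromes, was low in all groups, at 6.37 CPM or less, with a difference of -4.39 ± 0.81 (adjusted p = 0.039). In each of the 3 no fibrotic library overlapped a control library of its fraction.

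Across the 33 gene lists the median difference ran from -1.89 for cholangiocyte genes to 2.92 for the 7 tested erythroid genes (1.43 without F-SEC.2). The erythroid genes were low, summing to 25.87 to 34.31 CPM in the SEC libraries and 56.23 to 107.8 CPM in the HSC libraries. Of their 7 differences 2 were negative, so this median is loosely set. Besides the groups above, the 27 sterol and fatty acid synthesis genes had a median difference of -0.99, with 2 rising in SEC and 16 in HSC. The 25 unfolded protein response genes had a median of -0.70, with 24 negative, and were at -1.07, -0.36 and -0.45 without F-SEC.1, Q-SEC.1 and F-HSC.2 in that order. The 40 cell cycle genes had a median of 1.06, with 20 rising in SEC and 1 in HSC, and the 50 cytosolic ribosomal protein genes a median of 0.52, with 50 positive, 33 rising in SEC and 2 in HSC. Without F-SEC.1 the cell cycle and ribosomal medians were 0.49 and 0.24. In none of these lists was a gene called for the difference. With 0.801% of all tested genes called, this says little about lists of 25 to 50 genes. Over all tested genes 11.8% rose in SEC and 14.7% in HSC, and 17.6% fell in HSC. T and NK cell genes had a median of 1.68 (1.06 without F-SEC.2 and 2.69 without F-HSC.2), with Thy1 the only call, and 8 of 24 fell in HSC. Over all tested genes the median difference was 0.02.

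**Figure D5:**
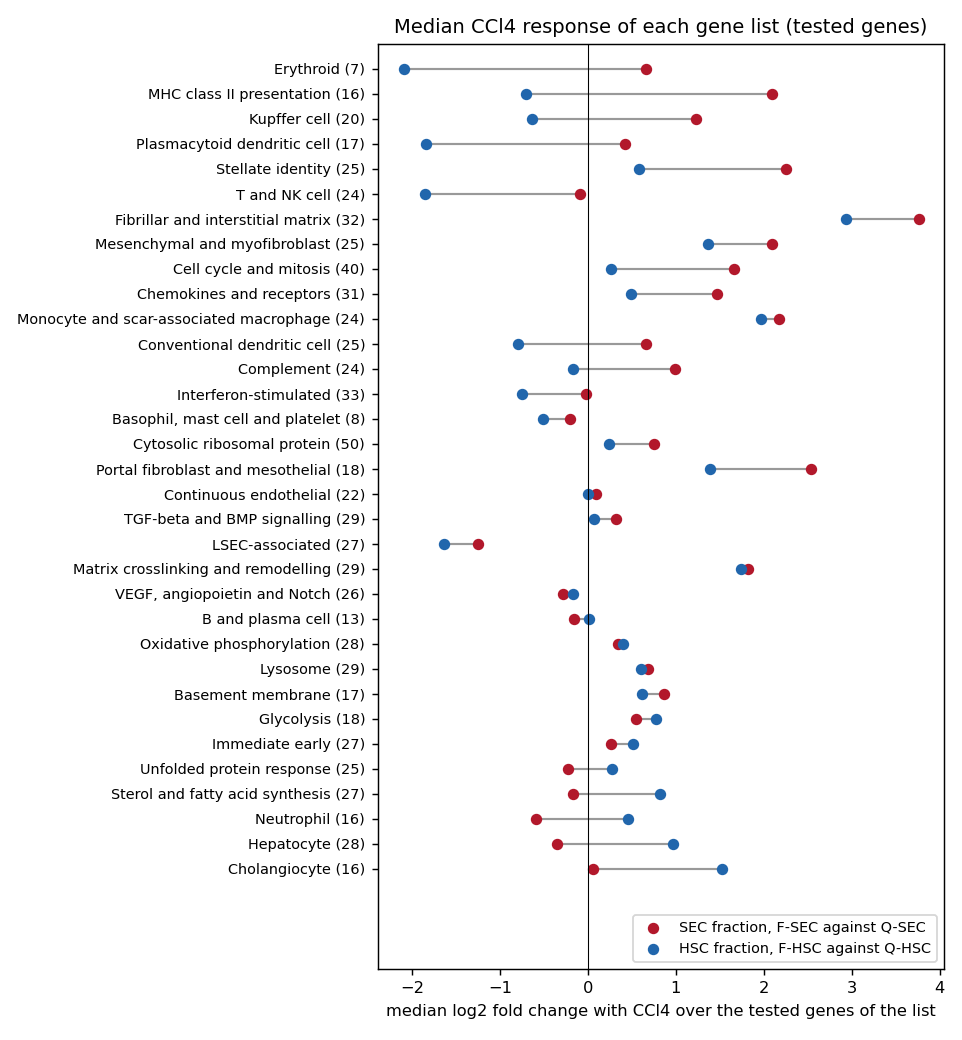
Median log2 change with CCl4 over the tested genes of each of the 33 lists (number of tested genes in parentheses), in SEC (red) and in HSC (blue), ordered by the median difference. MHC class II genes had medians of 2.10 in SEC and -0.70 in HSC, and hepatocyte genes had medians of -0.35 and 0.97 in the same order.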

How the data were processed

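The deposited table gives, per the labels, the authors' read counts per entry together with RPKM values. The submitters' processing notes name bcl2fastq, TopHat2 (version 2.0.13) and the build mm10. The counting tool and its use of strand are not given in the sources used here. The RPKM values deposited by the authors, scaled by library total and length, were not used.

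Clone entries (33353, 16.3 to 24.9% of counts per library) were set aside, 27 gene symbols that a spreadsheet had turned into dates were restored, 1 emptied line was dropped, and 22899 of 23472 genes matched RefSeq. Genes passing edgeR's count filter were normalised with TMM factors of 0.899 to 1.09, and models were run in R 4.3.3 with edgeR 4.0.16 (robust quasi-likelihood, 1 coefficient per group, 8 residual degrees of freedom, coefficient of variation 0.280). The contrast was (F-SEC minus Q-SEC) minus (F-HSC minus Q-HSC), adjusted by Benjamini-Hochberg over 14489 genes. SE is the log2 change divided by the root of F. Alternatives used DESeq2 1.42.0, limma 3.58.1 (voom), other scalings and filters, a replicate block and omission of libraries. In simulated counts for the difference (14319 genes run), 3% of 2-fold and 59% of 4-fold changes were recovered, and 7.46% of calls were false. There each unchanged gene had the same mean in all groups, changes were placed in F-SEC alone, and libraries were drawn independently with none standing apart. The real libraries differ in these respects, so the rates need not hold for them.

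The 33 gene lists and all members were chosen with earlier results of these data known. Named genes were up to 10 with opposite responses in each orientation by lowest p, the 6 with the largest difference in each direction among the rest with no overlap, both at a mean of at least 10 CPM, up to 4 called genes per list or else the 1 with the lowest p, and genes the study names. Others are said to be chosen after their values were seen, and the genes with opposite responses were all named. First libraries carry no number in their titles and were taken as 1. Same-numbered F-SEC and Q-SEC libraries deviated together (correlations 0.31, 0.25 and 0.16), as did those of F-SEC and F-HSC (0.47, 0.45 and 0.43) and of Q-SEC and F-HSC (0.32, 0.14 and 0.22). With Q-HSC the correlations were 0.53, 0.50 and -0.01 for Q-SEC, 0.12, 0.16 and -0.18 for F-SEC, and -0.09, 0.24 and -0.28 for F-HSC. Libraries 1 and 2 of Q-SEC and Q-HSC thus deviated together, and libraries 3 did not. Some libraries of unlike number also correlated, Q-SEC.3 with Q-HSC.2 at 0.49 and F-HSC.1 with Q-HSC.3 at 0.43. Others did not, as Q-SEC.1 with Q-HSC.2 at -0.62. The study states no pairing, so for the difference the block was an alternative. The main test takes no account of a pairing that may exist. Replicate libraries differed beyond counting noise (chi-square per degree of freedom 21.0 to 198). Levels of 3 counts cover counting error only.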

Additional observations from a re-analysis of the deposited data

Results flagged for a closer look

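The CCl4 response differed between the fractions for 116 genes by the test of the difference itself, and in 26 genes both responses were called with opposite signs.

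On the log2 scale the differences of the genes that rose in SEC and fell in HSC were as follows. They were 5.43 for Slc27a6, 4.47 for Cd209a, 4.45 for Thy1, 4.31 for Batf3 and 4.20 for Flt3. Between 3 and 4 units lay Plac8 at 3.77, Gfra2 at 3.65, Runx2 at 3.59, Slc14a1 at 3.54, Fgd2 at 3.46, Pou2f2 at 3.29, Pdzd4 at 3.11 and Dock10 at 3.03. Between 2 and 3 units lay Filip1l at 2.95, Pvt1 at 2.94, Epsti1 at 2.93, Arhgap15 at 2.73, Naaa at 2.70, Clec10a at 2.57, Fam46a at 2.23 and Celf2 at 2.21. The smallest were Il2rg at 1.64 and Vasp at 0.98. The genes that fell in SEC and rose in HSC had differences of -4.39 for Cyp4a31, -3.12 for Pla2g12b and -1.23 for Nedd4l.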

How the results depend on the processing

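The number of genes called for the difference depended on the tool, the threshold and the libraries used. In place of 116 genes (82 positive, 34 negative, 26 with opposite responses), DESeq2 called 911 (571, 340 and 73), which included all 116, and limma-voom called 25 (17, 8 and 8), all among the 116. At an adjusted p under 0.01 there were 4 (4, 0 and 1), and with a 2-fold limit 2 (2 and 0). The responses at those limits were 1262 and 462 genes for SEC, and 1985 and 503 for HSC. Only libraries numbered 2 and 3 gave 1712 (904, 808 and 212), with 115 of the 116 among them. Without Q-SEC.1 and Q-HSC.1, added after seeing the data, there were 431 (355, 76 and 54), and Entpd5 lost its call (adjusted p = 0.051).

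With one library left out, counts ranged from 3 to 743 in all, from 3 to 382 for positive and 0 to 361 for negative genes, and from 1 to 85 for opposite responses. The SEC response then ranged from 1710 to 3671 genes and the HSC response from 2612 to 4955.

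The replicate block called 183 genes (95, 88 and 40), although the study states no pairing and same-numbered libraries deviated together in only some of the groups. Of the 116 genes 99 were among them. The other 17 reached adjusted p-values of 0.050 to 0.063 under the block, and those described above were Igfbp1, Abca9, E230029C05Rik, Runx1, Cd48, Tgfa, Ear2, Aif1, Clec10a and Gfra2. Mmp23, Fmod and Cd9 gained a call (0.048, 0.046 and 0.035). Scaling by RLE, no filter, a 10 CPM filter and omission of Rn45s and Lars2 gave 99 to 135 genes. No named gene that was called for the difference reversed its sign under any of these alternatives. The cause of these shifts was not tested. The 8 residual degrees of freedom limit what can be called.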
